A study of Mus musculus with 6 samples.

Results

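Connexins and pannexins form large pores in the plasma membrane, and 7 genes of these 2 families known from bone cells were followed in pRb-deficient and pRb-expressing osteoblasts. The genes were Gja1, Gja4, Gjb2, Gjc1, Panx1, Panx2 and Panx3. Every probe set whose only gene symbol was one of these names was taken, which gave 15 probe sets of the 34945 that carry a single symbol, and 7 genes of 18193. The choice used gene names and no measured value of these arrays, although it was made with earlier results of these data known. Gja1 was higher in pRb-deficient than in pRb-expressing osteoblasts, by 1.68 ± 0.09 on the log2 scale (standard error, n = 3 cultures each) for its brightest probe set. Panx3 was lower in pRb-deficient osteoblasts, with a 72.0-fold ratio of mean signals for its brightest probe set. The other 5 genes did not pass the test.

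As background, 6 connexin subunits assemble into a hemichannel, and hemichannels of neighbouring cells dock to form a gap junction through which ions and small molecules pass. Connexin 43, the product of Gja1, is the best known gap junction protein of osteoblasts and osteocytes. Pannexins are related in topology but not in sequence to connexins, and act mainly as single-membrane channels that release ATP. Pannexin 3 is a skeletal member of that family, known from osteoblasts and chondrocytes, where it is induced as the cells differentiate. ATP outside the cell acts on P2 receptors and is broken down to adenosine by ectonucleotidases.

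The osteoblasts were MC3T3 cells, here meaning cells of the calvariae (the skull vault) of mice at embryonic day 18.5 that were immortalized by serial passage on the 3T3 schedule. The pRb-deficient cultures, labelled Rb Knockout, derived from mice with the RB gene excised in osteoblasts. The pRb-expressing cultures, labelled wild type, derived from littermate controls. The animals were F2 offspring of self-crossed RBf19/WT;Col1a1-Cre mice, bred from flox19-RB1 mice on a C57BL/6 background and from 2.3- and 3.6-Col1a1-Cre mice, in which fragments of the type I collagen promoter drive Cre in cells of the osteoblast lineage. Which of the 2 Cre lines gave these cells, and whether the control littermates carried Cre, was not given in the sources used here. Both kinds of culture grew in α-MEM with fetal bovine serum and penicillin-streptomycin. RNA of 3 cultures of each kind was hybridized to 1 Affymetrix Mouse Genome 430 array each. The labels call them biological replicates, but no source says whether each had its own line or animal, so p-values measure the spread between these cultures, and the origin of a line and its pRb status cannot be told apart.

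Signals are MAS5 intensities on a linear scale, scaled to the same trimmed mean of 500 on every array, and the median signal lay between 108.0 and 119.9. Over log2 signals, Pearson's r was 0.974 to 0.985 between arrays within a group and 0.912 to 0.917 across the groups. The ratio of 3′ to 5′ Gapdh probe sets, a sign of RNA integrity, was 0.754 to 0.766 in pRb-deficient and 0.736 to 0.752 in pRb-expressing cultures. Rb1, the gene deleted, had a signal of 131 ± 10.4 in pRb-deficient and 1116 ± 9.17 in pRb-expressing cultures (SD, n = 3 each), −3.09 on the log2 scale (adjusted p = 4.945e-06 by limma). Whether this probe set covers the deleted exon is not known. Of 12 osteoblast markers listed, 9 were measured, while Runx2, Bglap and Spp1 had no probe set with that name as its only symbol. Of the 9, 1 was higher and 6 were lower in pRb-deficient cultures (77.8% called, against 41.9% of all genes). Their summed signal was 17808 to 27716 there, against 39210 to 46134 in pRb-expressing cultures. Most of that sum came from Col1a1 (10945 in pRb-deficient and 18818 in pRb-expressing cultures on average) and Col1a2 (11300 and 18959). Of the osteocyte markers in that list, Dmp1 was lower (6.13 in pRb-deficient and 496 in pRb-expressing cultures on average) and Phex higher (128 in pRb-deficient and 28.0 in pRb-expressing cultures), while Sost and Mepe were near the floor of 32 in both groups. Chondrocyte markers summed to 2012 to 2953 in pRb-deficient and 3587 to 4413 in pRb-expressing cultures, with Col10a1 and Col9a2 at or below 32 on every array. Mesothelial markers summed to 2831 to 3486 in pRb-deficient and 399.9 to 463.2 in pRb-expressing cultures. Of these 7 markers, 3 were higher and 1 lower (57.1% called). Of 7 hematopoietic and osteoclast markers tested, 1 was higher and 1 lower (28.6% called). That list summed to 882.9 to 1157.5 in pRb-deficient and 4313 to 4387 in pRb-expressing cultures. With only 1 of its genes called lower, this difference of sums does not describe the list as a whole. Csf1r was not called (427 in pRb-deficient and 439 in pRb-expressing cultures on average), and Cd68 was the gene called higher (194 and 105). Of 8 smooth muscle and pericyte markers tested, 4 were higher and 1 lower (62.5% called). Their sums were 31808.5 to 37806.8 in pRb-deficient and 27892.4 to 31281.7 in pRb-expressing cultures. Of 8 epithelial markers, 2 were lower and none higher (25.0% called, with sums of 996.4 to 1309.1 and 1482.0 to 1651.6). Of 6 neural markers, 1 was higher and 1 lower (33.3% called, with sums of 719.2 to 808.8 and 817.4 to 966.4). Each of these shares is to be read beside the 41.9% called over all genes. In bulk RNA, fewer cells of a type and less RNA per cell cannot be told apart, and the part of these marker differences in the results that follow was not tested.

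A probe set was called higher or lower when its adjusted p from limma was under 0.05, with fold changes given as pRb-deficient over pRb-expressing on log2 signals floored at 32. Of the 15 probe sets, 5 were called higher and 3 lower, together 53.3%, while 35.0% of the 38427 probe sets tested on the array were called (16.2% higher and 18.8% lower). All 5 that were higher belong to Gja1 and all 3 that were lower to Panx3. Counted by gene with the brightest probe set, 2 of 7 genes were called (28.6%), against 41.9% of the 16308 genes tested (18.5% higher and 23.4% lower), so the share of called genes was not above that of the array. The median log2 fold change was 0.16 over the 15 probe sets and −0.06 over all probe sets. Signals of pRb-deficient and pRb-expressing cultures did not overlap for 10 of the 15, which held for 48.0% of all probe sets. All 15 were above 32 on at least 1 array, but Panx2 was so only in pRb-deficient cultures and 2 Panx3 probe sets only in pRb-expressing cultures, so these 3 passed the filter through the group in which they were higher.

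**Figure D1:**
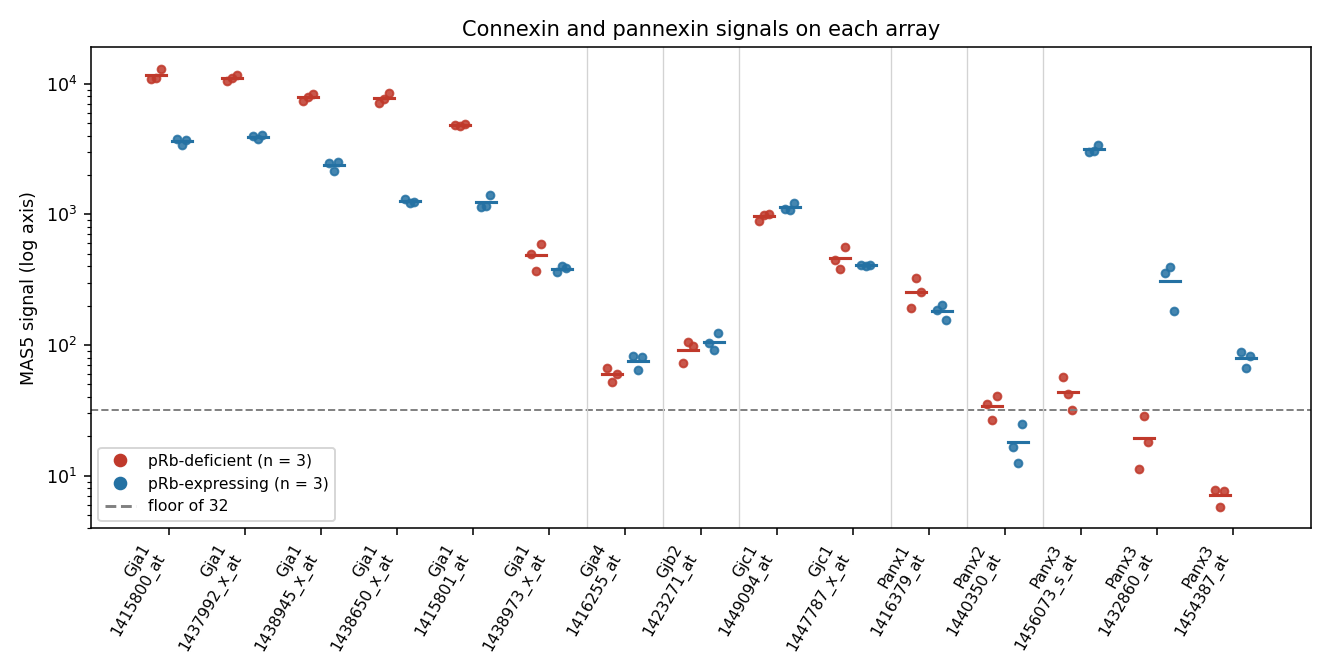
MAS5 signal (log axis) of each of the 15 connexin and pannexin probe sets on each array, with pRb-deficient cultures in red to the left of pRb-expressing cultures in blue (n = 3 each), the group mean as a bar and the floor of 32 as a dashed line. For 5 of 6 Gja1 probe sets the red points lie above the blue points, and for the 3 Panx3 probe sets they lie below them.

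Gja1 was measured by 6 probe sets. The brightest, 1415800_at, had signals of 10749, 11109 and 12870 in pRb-deficient cultures, against 3784, 3368 and 3687 in pRb-expressing cultures. Every pRb-deficient culture lay above every pRb-expressing one. The means were 11576 ± 1135 and 3613 ± 217 (SD, n = 3 each), a 3.20-fold difference with a log2 fold change of 1.68 (95% interval 1.46 to 1.89, adjusted p = 2.81e-05 from limma). A second probe set drawn from the same transcript record, 1415801_at, had 4798, 4741 and 4914 in pRb-deficient and 1138, 1159 and 1408 in pRb-expressing cultures. Its log2 fold change was 1.97 ± 0.09 (standard error), 3.92-fold, with an adjusted p of 1.678e-05 from limma.

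The remaining Gja1 probe sets carry the suffix _x_at, which Affymetrix gives to probe sets with probes that can match other transcripts. Of these, 1438650_x_at showed 7118, 7668 and 8441 in pRb-deficient and 1319, 1210 and 1251 in pRb-expressing cultures, a log2 fold change of 2.62 ± 0.08 and the largest of the 6 at 6.13-fold. Probe sets 1438945_x_at and 1437992_x_at gave log2 fold changes of 1.73 ± 0.09 and 1.49 ± 0.07, with every pRb-deficient signal above every pRb-expressing one. The sizes thus differed between probe sets of the same gene by more than their standard errors, from 2.81-fold to 6.13-fold among the 5 that were called. The sixth, 1438973_x_at, had 498.6, 368.3 and 593.0 in pRb-deficient and 361.7, 398.5 and 391.0 in pRb-expressing cultures. These groups overlapped, and the log2 fold change of 0.32 (95% interval −0.11 to 0.74) did not pass the test (adjusted p = 0.228 from limma). Without pRb-deficient replicate 2, the lowest of its group here, it was called higher with an adjusted p of 0.0384 from limma.

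The bases before the RefSeq start of Gja1 are shown because Jun, which acts on AP-1 sites, was higher in pRb-deficient cultures (2.45 on the log2 scale). Fos, its partner in AP-1, was lower (−0.92), and a part of either in the level of Gja1 was not tested. The bases before the start of Panx1, the only pannexin with an entry, are shown for comparison. RefSeq promoter entries on GRCm38.p6 matched 4 of the 7 genes (Gja1, Gja4, Gjb2 and Panx1), and the 250 bases before the start are given 5′ to 3′ along the gene, from chr10:56377050-56377299 on the plus strand for Gja1 and chr9:15045479-15045728 on the minus strand for Panx1. Capitals mark matches on either strand to the motifs TGANTCA (AP-1) and TGTGGT (RUNX), which do not overlap here.
Gja1: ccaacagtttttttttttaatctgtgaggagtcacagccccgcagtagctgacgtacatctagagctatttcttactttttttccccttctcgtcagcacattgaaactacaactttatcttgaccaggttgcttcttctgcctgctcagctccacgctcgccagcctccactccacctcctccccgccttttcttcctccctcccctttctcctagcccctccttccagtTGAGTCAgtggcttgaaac
Panx1: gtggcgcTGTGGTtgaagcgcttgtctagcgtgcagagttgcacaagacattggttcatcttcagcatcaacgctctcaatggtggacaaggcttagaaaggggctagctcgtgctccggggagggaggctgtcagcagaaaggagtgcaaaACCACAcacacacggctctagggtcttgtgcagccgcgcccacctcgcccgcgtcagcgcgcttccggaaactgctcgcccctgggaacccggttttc
The Gja1 window held 1 match to TGANTCA, at position −19 from the start, and none of the other 3 promoters held any. This motif occurred in 6.75% of 32851 promoter windows of the same length. The Panx1 window held TGTGGT at positions −243 and −98, a motif found in 4614 of the 32851 windows. Windows of Gja4 and Gjb2 held 1 and 2 matches to GGGCGG (an SP motif found in 32.7% of windows). None of the 4 held TTTNNCGC, the letters searched for E2F factors, which occurred in 4.28% of windows. A match is a match of letters, and binding was not measured.

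Gjc1 encodes connexin 45, which can mix with connexin 43 and in rat osteoblast-like cells lowers the permeability of the channels it joins. Its brighter probe set, 1449094_at, had signals of 894.8, 982.9 and 1007 in pRb-deficient and 1094, 1085 and 1219 in pRb-expressing cultures. The groups did not overlap, but the log2 fold change was only −0.24 ± 0.08 (95% interval −0.44 to −0.04) and the adjusted p was 0.0704 from limma. Gjc1 lies on chromosome 11, where the median gene had a log2 fold change of −0.52, and with chromosome medians removed its value turned to 0.28 (adjusted p = 0.0383 from limma). The other probe set, 1447787_x_at, had 442.8, 380.5 and 558.8 in pRb-deficient and 408.9, 403.1 and 407.9 in pRb-expressing cultures. Its groups overlapped, at 0.16 ± 0.15 on the log2 scale (adjusted p = 0.464, limma), so the 2 probe sets had opposite signs and neither passed. With chromosome medians removed it was called higher too, at 0.68 (adjusted p = 0.0123, limma).

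Gja4 (connexin 37, best known from endothelium and also present in bone cells) had signals of 66.4, 52.1 and 59.7 in pRb-deficient and 82.1, 64.5 and 81.3 in pRb-expressing cultures. The groups overlapped, and the log2 fold change of −0.35 (95% interval −0.81 to 0.10) did not pass (adjusted p = 0.209 from limma). Endothelial markers summed to 524.5 to 578.3 in pRb-deficient and 525.4 to 576.5 in pRb-expressing cultures, and none of the 6 tested was called. Gjb2 (connexin 26, the connexin of the inner ear and skin) had 73.2, 105.6 and 97.6 in pRb-deficient and 104.0, 90.7 and 123.6 in pRb-expressing cultures. Its log2 fold change was −0.21 (95% interval −0.75 to 0.33, adjusted p = 0.532 from limma), and these arrays could not resolve a difference of that size.

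The rest of the connexin family gave no call. Of 16 other connexin genes listed, 10 were measured, and 5 of these (Gja5, Gjb1, Gjb5, Gjd4 and Gje1) were at or below 32 on all 6 arrays. The 5 that were tested, Gja3, Gja10, Gjb6, Gjc3 and Gjd2, overlapped between groups, and none was called at the adjusted or at an unadjusted p under 0.05 from limma. Their median log2 fold change was −0.12, against −0.09 over all genes tested. Gjd2, a neuronal connexin, had 37.5, 134.9 and 78.2 in pRb-deficient and 89.1, 66.3 and 86.3 in pRb-expressing cultures, so the pRb-deficient values spanned all 3 pRb-expressing ones.

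Panx3 had signals of 56.8, 42.1 and 31.5 in pRb-deficient cultures, against 2977, 3035 and 3380 in pRb-expressing cultures, by its brightest probe set 1456073_s_at. The groups stood far apart, at 43.5 ± 12.7 and 3131 ± 218 (SD, n = 3 each), a ratio of means of 72.0. The fitted log2 fold change was −6.20 ± 0.21 (adjusted p = 4.945e-06 from limma), with the pRb-deficient culture at 31.5 set to the floor of 32. The size depends on that floor, since with a floor of 100 it was −4.97. The suffix _s_at marks probes shared by more than 1 transcript. The other Panx3 probe sets, which carry no such suffix, were also lower, but both passed the filter only through pRb-expressing cultures. Probe set 1432860_at had 11.2, 28.8 and 18.0 in pRb-deficient and 352.9, 396.3 and 182.7 in pRb-expressing cultures, at least 9.20-fold lower (adjusted p = 0.0003122, limma). Probe set 1454387_at had 7.8, 5.8 and 7.6 in pRb-deficient and 87.6, 66.8 and 82.9 in pRb-expressing cultures, at least 2.46-fold lower (adjusted p = 0.000844, limma). With all 3 pRb-deficient cultures below the floor in both, the differing bounds reflect how bright each probe set was in pRb-expressing cultures.

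Panx3 is also known from prehypertrophic chondrocytes. Of the 9 chondrocyte markers tested, 4 were lower and 1 was higher in pRb-deficient cultures, with the summed signals given above. That is 55.6% called, against 41.9% of all genes. Of the 9 osteoblast markers tested, 6 were lower and 1 was higher (77.8% called). Sp7 (osterix) had 170.9, 16.4 and 184.9 in pRb-deficient and 1574, 1842 and 2084 in pRb-expressing cultures. Its fitted log2 fold change was −4.18, with pRb-deficient replicate 2 set to the floor. Ibsp was at least 71.1-fold lower and Dmp1 at least 15.0-fold lower. The log2 fold changes of Alpl (−1.17), Col1a1 (−0.80) and Col1a2 (−0.76) were smaller in size. Phex was higher (1.88), and Mepe and Sost were not called. The part of either marker list in the level of Panx3 was not tested.

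Panx1, the pannexin found in most tissues, had 191.6, 322.4 and 254.9 in pRb-deficient and 185.0, 201.5 and 155.7 in pRb-expressing cultures. The groups overlapped through pRb-deficient replicate 1, and the log2 fold change was 0.48 (95% interval −0.05 to 1.01, adjusted p = 0.152 from limma). Panx2, known mainly from the nervous system, had 35.2, 26.5 and 40.7 in pRb-deficient and 16.7, 12.5 and 24.8 in pRb-expressing cultures. Its signals did not overlap between groups, but 4 of the 6 lay at or below the floor, and the floored log2 fold change of 0.16 ± 0.12 did not pass (adjusted p = 0.377 from limma). The 3 pannexins thus showed a called fall in Panx3 and no called change in Panx1 or Panx2, and the intervals of Panx3 (−6.70 to −5.71) and of Panx1 did not overlap.

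**Figure D2:**
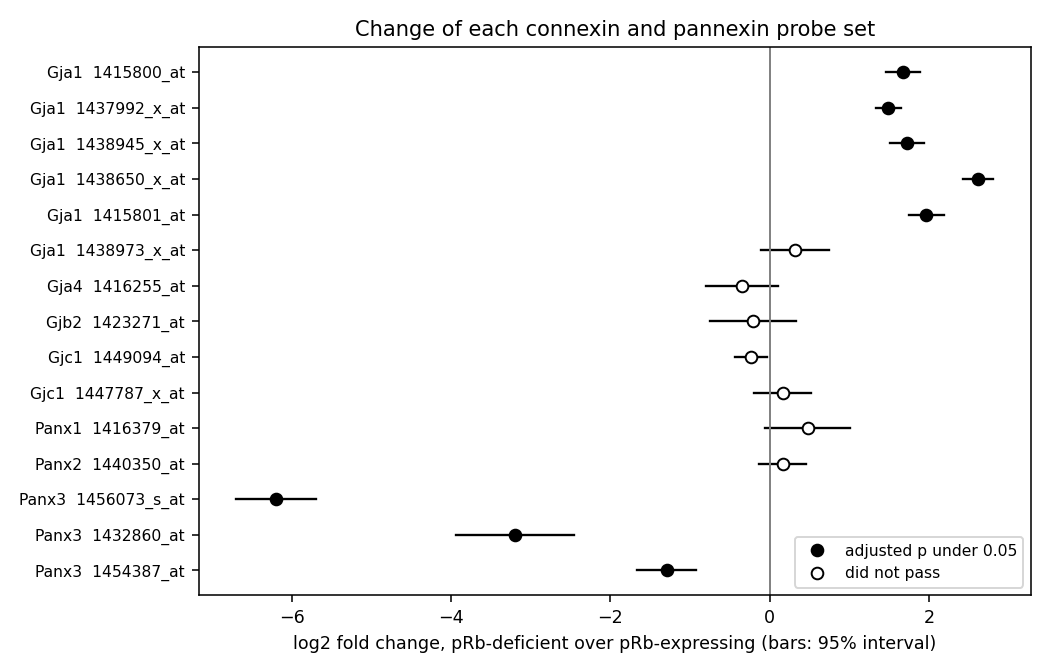
Log2 fold change, pRb-deficient over pRb-expressing, of each probe set (points) with its 95% interval (bars, n = 3 cultures each), filled where the adjusted p from limma was under 0.05. Filled points are the 5 Gja1 probe sets from 1.49 to 2.62 and the 3 Panx3 probe sets from −6.20 to −1.30, and intervals of the open points reach 0 except that of Gjc1 1449094_at.

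Genes of some chromosomes shifted together between these cultures, so each gene was set beside its chromosome and its neighbours. Over all 16308 genes tested, 18.5% were higher and 23.4% lower, the shares to read beside each count of neighbours. Gja1 lies on chromosome 10, where the median log2 fold change over 503 genes was 0.13 and 25 genes had a higher fitted value than Gja1. Of its 6 nearest tested neighbours, 3 on each side, Man1a and Msl3l2 were higher and none was lower. Man1a, a Golgi mannosidase, averaged 2377 in pRb-deficient and 12.9 in pRb-expressing cultures, a log2 fold change of at least 6.21 (adjusted p = 1.524e-06 from limma). Msl3l2 had a log2 fold change of 2.15, and Tbc1d32, Hsf2, Serinc1 and Smpdl3a lay between −0.38 and 0.44 without passing. Both called neighbours lay on the same side of Gja1. Over 10 genes on each side, a window chosen after these values were seen, 4 were higher and 3 lower of 20, with a median of 0.14.

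Panx3 and Panx1 both lie on chromosome 9, with a median of 0.28 over 561 genes. Of the 6 neighbours of Panx3, 5 were lower, and their median was −0.94. Spa17 had a log2 fold change of −1.94, Siae −1.09, AW551984 −0.96, Tbrg1 −0.92 and Vwa5a −0.85, while Olfr976 (−0.10) did not pass. Over 10 genes on each side, 9 of 20 were lower and none was higher, with a median of −0.31. Of all genes tested, 23.4% were lower and 18.5% higher. The fall of Panx3 was larger than that of any of its 6 nearest neighbours by over 4 log2 units in the fitted values. Whether a shift of the region had a part in the fall of Panx3 was not tested. Near Panx1, Med17 was higher (0.64) and Ankrd49 lower (−0.38), with a median of −0.05 over 6.

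Among the other members, Panx2 had 2 higher neighbours of 6, Pim3 (1.37) and Trabd (0.74), and a chromosome 15 median of 0.35. Gja4 (chromosome 4, median 0.06), Gjb2 (chromosome 14, median 0.28) and Gjc1 each had 1 higher and 1 lower neighbour of 6. Over 10 genes on each side, Gjc1 had 1 higher and 8 lower of 20 (median −0.33), while 4 were higher and 2 lower around Gja4, 2 and 1 around Gjb2, 6 and 2 around Panx1, and 6 and 1 around Panx2. Gjb2 stands beside 2 further connexin genes, Gja3 (0.14) and Gjb6 (−0.17), and none of the 3 was called.

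**Figure D3:**
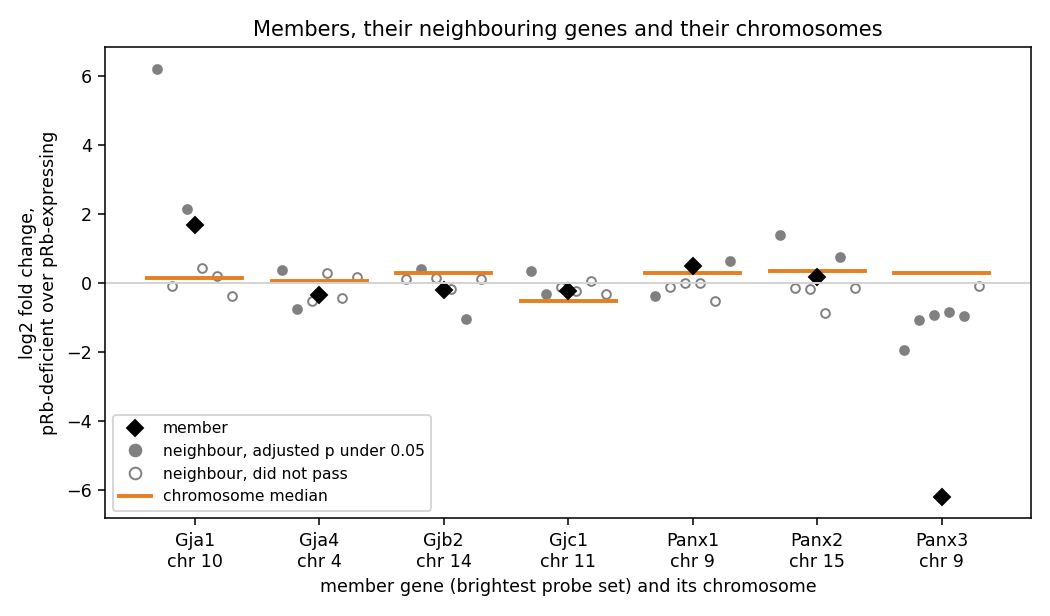
Log2 fold change, pRb-deficient over pRb-expressing, of each member's brightest probe set (diamond), of its 3 nearest tested genes on each side in gene order (circles, filled where the adjusted p from limma was under 0.05) and the median of its chromosome (bar). Panx3 (−6.20) lies below 5 filled neighbours from −1.94 to −0.85 while its chromosome median is 0.28, and Gja1 (1.68) lies between its neighbours Man1a (6.21) and Serinc1 (0.19).

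Other large-pore channels and routes of ATP release moved in both directions. Of 13 genes listed, 10 were measured and 9 tested, of which 3 were higher and 3 lower (66.7% called, against 41.9% of all genes), with a median log2 fold change of −0.05. All 3 that were higher encode accessory subunits of the LRRC8 volume-regulated anion channel. Lrrc8d had 1076, 1614 and 1844 in pRb-deficient and 215.5, 229.5 and 226.4 in pRb-expressing cultures, higher by 2.72 ± 0.19 on the log2 scale (adjusted p = 8.401e-05, limma). Lrrc8e had 296.1, 275.3 and 251.1 in pRb-deficient and 66.6, 53.8 and 49.1 in pRb-expressing cultures (2.29 ± 0.19), and Lrrc8c 2679, 3028 and 2427 in pRb-deficient and 1033, 882.2 and 1010 in pRb-expressing cultures (1.47 ± 0.11). A second probe set of each was higher too. The obligatory subunit Lrrc8a was not called, at 0.23 ± 0.09 on the log2 scale (adjusted p = 0.0939, limma). The mitochondrial porin Vdac1 fell by 0.67 on the log2 scale, a call lost when chromosome medians were removed, and the calcium homeostasis modulators Calhm2 and Calhm5 each fell by 0.98.

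Proteins that bind, modify or remove connexins were measured for 19 of 20 genes listed, and 4 were higher and 6 lower (52.6% called, against 41.9% of all genes), with a median of −0.14. Prkcd, a protein kinase C that acts with connexin 43 in osteoblast signalling, had 1949, 1754 and 1520 in pRb-deficient and 702.8, 760.1 and 718.1 in pRb-expressing cultures (log2 fold change 1.25 ± 0.10, adjusted p = 0.000148 from limma). Its second probe set did not pass, at 0.39. Ccn3, a matricellular protein that binds connexin 43, had 1345, 1494 and 1278 in pRb-deficient and 3001, 2900 and 2621 in pRb-expressing cultures (−1.05 ± 0.09, adjusted p = 0.0001543 from limma). Mapk7, a kinase that phosphorylates connexin 43, fell by 1.56 and Prkce by 0.63 on the log2 scale. The scaffold Tjp1 (ZO-1), Cav1 and Csnk1d were also lower, and Sgsm3, Ezr and Src higher. Tjp1, Cav1 and Csnk1d lost their calls when chromosome medians were removed. Cav1 and Src each kept their calls in 12 of 16 alternatives, and Csnk1d in only 7. A second probe set of Ezr did not pass (0.31, adjusted p = 0.49 from limma). Without pRb-expressing replicate 2 only 6 of the 19 were called.

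Of 24 purinergic receptors and ectonucleotidases measured, 20 were tested, and 4 were higher and 5 lower, with a median of −0.19. The share of 45.0% was near that of all genes. P2rx7, an ATP-gated channel of osteoblasts, had 72.7, 84.6 and 111.0 in pRb-deficient and 788.5, 750.5 and 839.3 in pRb-expressing cultures. That is 8.99-fold lower (log2 fold change −3.17 ± 0.18, adjusted p = 3.438e-05 from limma). Both other probe sets of P2rx7 were lower, by 1.27 and by at least 3.15 on the log2 scale. The latter had every pRb-deficient culture below the floor. P2rx4 and P2ry13 were lower as well, and no receptor was higher.

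Of the ectonucleotidases and related enzymes, 4 were higher and 2 lower, while Entpd2 and Entpd6 were not called. Nt5e (CD73), which makes adenosine from AMP, had 3828, 4270 and 3008 in pRb-deficient and 152.6, 119.4 and 169.4 in pRb-expressing cultures. This was 25.2-fold higher (log2 fold change 4.65 ± 0.17, adjusted p = 7.617e-06, limma), and its rise was seen with 2 of 3 probe sets. Enpp3 (2.30 ± 0.25, 3 of 5 probe sets higher), Entpd5 (1.42 ± 0.17, 5 of 6 higher) and Entpd1 were also higher. Alpl, the alkaline phosphatase of mineralizing bone, and Entpd3 were lower. Whether the receptors and the enzymes differed as groups was not tested.

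**Figure D4:**
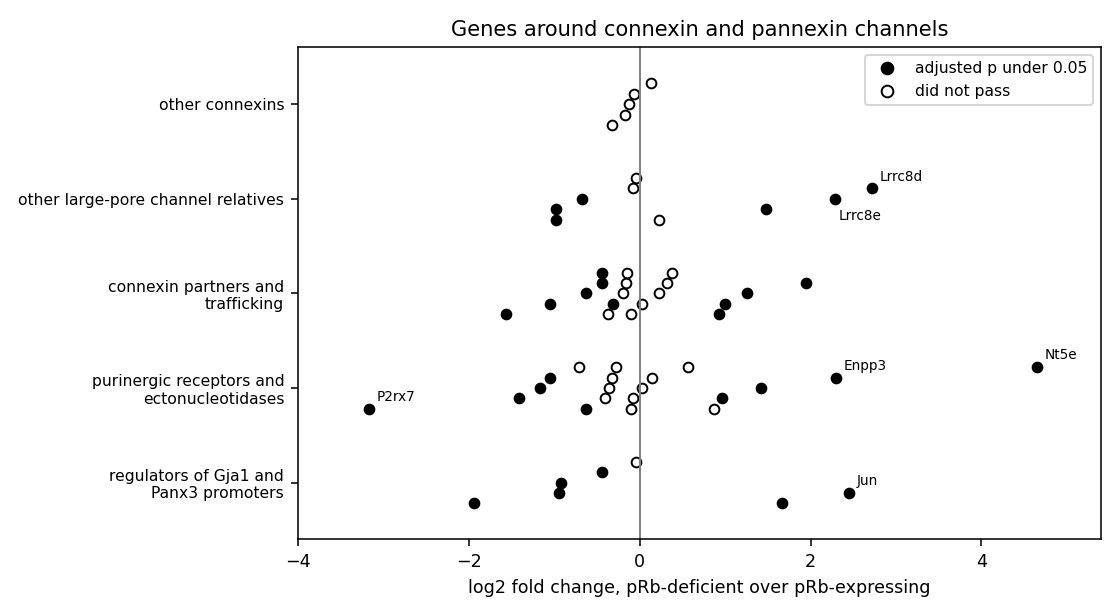
Log2 fold change, pRb-deficient over pRb-expressing, of each tested gene (brightest probe set) in 5 lists of genes around connexin and pannexin channels, filled where the adjusted p from limma was under 0.05, with the 6 largest in size named. Nt5e (4.65), Lrrc8d (2.72), Jun (2.45), Enpp3 (2.30) and Lrrc8e (2.29) lie farthest to the right and P2rx7 (−3.17) farthest to the left, and all 5 other connexins are open.

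Of 8 transcription factors listed for the Gja1 or Panx3 promoter, 7 were measured, namely Sp1, Sp3, Jun, Fos, Tbx2, Tbx3 and Nkx2-5. Runx2 was not among them, and action of the 7 on the Panx3 promoter was not tested. Of these, 2 were higher and 4 lower (85.7% called, against 41.9% of all genes), with a median of −0.44. Jun, a subunit of AP-1, had 4481, 6460 and 7105 in pRb-deficient and 998.2, 1072 and 1167 in pRb-expressing cultures (log2 fold change 2.45 ± 0.17, adjusted p = 7.651e-05 from limma). Fos, its partner in AP-1, went the other way, with 1172, 1330 and 942.0 in pRb-deficient and 1762, 2693 and 2115 in pRb-expressing cultures (−0.92 ± 0.18, adjusted p = 0.007427 from limma). Tbx2, a repressor of Gja1 in heart and bone cells, had 40.4, 27.9 and 40.9 in pRb-deficient and 132.2, 163.4 and 139.2 in pRb-expressing cultures, 3.85-fold lower in the fit, with 1 culture set to the floor (adjusted p = 0.0003442, limma). Its relative Tbx3 was higher, with 264.0, 450.0 and 598.8 in pRb-deficient and 93.2, 142.3 and 167.2 in pRb-expressing cultures (1.67 ± 0.35). Sp1 was not called (−0.04), and Sp3 and Nkx2-5 were lower, calls that were kept in 12 and 7 of 16 alternatives and lost for both with chromosome medians removed. Leaving out pRb-expressing replicate 1 or pRb-deficient replicate 2 left 3 of the 7 called, and Tbx3 then lost its call.

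The genes whose log2 signal followed that of Gja1 most closely over the 6 arrays were Seh1l (Pearson r = 0.9997), Mast2 (0.9992) and Lum (0.9989), out of 10167 genes with a mean of at least 200 in the higher group. Lumican, the small proteoglycan encoded by Lum, had 7864, 8022 and 9609 in pRb-deficient and 2077, 2016 and 2155 in pRb-expressing cultures, highest in the same culture as all 6 Gja1 probe sets, pRb-deficient replicate 3. For Panx3 they were Rgs10, Stau1 and Pth1r, each with an r of 0.9998 or above. Pth1r, the receptor for parathyroid hormone, had 402.4, 343.3 and 272.3 in pRb-deficient and 4689, 4758 and 5400 in pRb-expressing cultures. Within both groups this was the order of cultures in Panx3 probe set 1456073_s_at, while the other Panx3 probe sets ordered them differently. Lum and Pth1r were picked for their r, so a shared order of cultures follows largely from that choice. With 2 groups that stand apart, such an r is set largely by the difference between groups, and 364 genes passed 0.99 with Gja1 and 532 with Panx3.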

How the data were processed

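Total RNA of 3 pRb-deficient and 3 pRb-expressing osteoblast cultures was labelled and hybridized by the authors, 1 array per culture. The authors deposited linear MAS5 signal intensities, without detection calls, and state scaling of each array to a trimmed mean of 500 with Microarray 5.0 software. Affymetrix Expression Console 1.1 is listed beside MAS5 in the submitters' processing notes. The number of arrays limits the precision, and 24.4% to 26.6% of probe sets on each array were at or below 32.

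Of 45101 probe sets, 64 controls and 6610 at or below 32 on all 6 arrays were left out, and 38427 were tested. After a floor of 32 was set, log2 signals were fitted in limma 3.58.1 under R 4.3.3 (lmFit, and eBayes with an intensity trend). The group was the sole term, which left 4 degrees of freedom. The methods' rank statistic was not used, since an exact permutation test of 3 against 3 arrays cannot go below 0.10 for a probe set. Two-sided p-values were adjusted (Benjamini-Hochberg) over all probe sets tested, with a threshold of 0.05. When every array in a group lay at or under 32, folds are lower bounds against that floor ("at least"). Signals of different probe sets were not set against each other as levels of transcript. In the array's annotation, 34945 probe sets had a single gene symbol, 932 had several and 9160 had none. Of those with a single symbol, 34741 had a RefSeq gene ID, used for chromosomes and gene order only, since the study names no genome build. Each gene was represented by its brightest probe set, that of highest mean over the 6 arrays.

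The members and all lists were chosen with earlier results of these data known. The text names every member, the called genes of lowest adjusted p in each list (at most 4), the 3 genes most like Gja1 and Panx3, neighbouring genes and Rb1. Further list genes, Lrrc8a among them, were named after their values were seen. List genes that the text does not name by value are given as counts. Alternatives changed the floor (none, 100, or a pseudocount of 32), the filter (a mean signal of at least 100), the normalization (quantile or median centring) and the model (without the intensity trend, with array quality weights, with the replicate number as a block), and further ones were removal of chromosome medians, the mean of a gene's probe sets and leaving out each array. The steps were tested on simulated data.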

Additional observations from a re-analysis of the deposited data

How the results depend on the processing

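Of 264 values under alternative settings, 255 kept their direction and call, or a count within 1.5 times. The 5 called Gja1 probe sets and the 3 Panx3 probe sets were called the same way in every alternative that tested them (16 each, 14 for Panx3 1454387_at, which a floor of 100 or a mean of at least 100 removed together with Gja4 and Panx2). The log2 fold change of the brightest probe set lay between 1.55 and 1.73 for Gja1 and between −6.48 and −4.97 for Panx3. Taken from the mean of a gene's probe sets, the log2 fold change was 1.63 for Gja1 and −3.57 for Panx3. With array quality weights, 5 of the 7 genes were called instead of 2, where 50.3% of all probe sets were called: Gja4 (−0.54, adjusted p = 0.0192 from limma), Gjc1 (−0.21, 0.0224) and Panx1 (0.80, 0.00638) passed there. Removal of chromosome medians reversed Gjc1 to 0.28 (adjusted p = 0.0383) and Panx2 to −0.19 (0.26). Leaving out 1 array gave 6 to 10 called connexin partners (10 with all arrays; 6 without pRb-expressing replicate 2) and 3 to 5 called regulators (6 with all arrays; 3 without pRb-expressing replicate 1 or pRb-deficient replicate 2). The cause of these changes was not tested. No other connexin could be tested with a mean of at least 100. Arrays of the same replicate number correlated at 0.02, −0.03 and 0.06 after removal of group means, so the numbers were not taken as pairs. With the replicate number as a block, 8 of the 15 member probe sets were called, as without it, and 12367 of all probe sets, against 13433. Signals near the floor limit what can be said of Panx2, Gja4, Gjb2 and the other connexins.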
